A study of Mus musculus with 10 samples.

Results

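The genes described here are 10 genes that mark reactive microglia and macrophages: *Spp1*, *Apoe*, *Lpl*, *Itgax*, *Cd68*, *Gpnmb*, *Lgals3*, *Cst7*, *Clec7a* and *Axl*. They were chosen by symbol from the 53974 genes of the RNA-seq table by a rule that holds no measured value. For ATAC-seq, which reads out accessible chromatin, regions within 1000 bp of either end of these genes were taken, and 1 of 16600 regions qualified. All mice were *Arid1a* fl/fl on a C57BL/6 background and 8 to 10 weeks old, and each received an AAV2 vector in the vitreous. Those labelled WT were given AAV2-GFP and were the controls, and those labelled cKO (*Arid1a* del/del) were given AAV2-Cre to remove *Arid1a*, which encodes a subunit of the SWI/SNF chromatin remodeler. Cre was driven by the CMV promoter, which is active in many cell types. The optic nerve was crushed (ONC) 2 weeks after injection in both groups, and 3 days later live retinal cells stained for Thy1.2 were sorted, with 4 to 5 retinas in each sample. There were 3 RNA-seq libraries of each group and 2 ATAC-seq libraries of each.

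Microglia are the resident macrophages of the retina. When neurons are injured they leave a surveying state marked by *P2ry12* and *Tmem119*, and they take up debris and lipid, a change known to involve the receptor TREM2 and its adaptor TYROBP. Genes for lipid transport, lysosomes and debris-binding receptors are known to be induced in that state, and most are also expressed by macrophages that enter from blood. Several have further sources: *Apoe* is abundant in Müller glia and astrocytes, *Axl* and *Lgals3* are expressed by glia, and *Cst7* by cytotoxic lymphocytes.

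*Arid1a* RNA was not lower in the libraries labelled cKO, at 18.8, 27.9 and 25.0 TPM (transcript abundance corrected for length and scaled to a fixed total per library), than in those labelled WT, at 18.8, 11.7 and 14.1 TPM, with a log2 difference of 0.66 and an adjusted p of 0.274 from limma. Every direction below is therefore that of the library labels, and a difference is always cKO minus WT. The sort was meant to enrich retinal ganglion cells (RGCs), yet their defining markers were scarce, with *Rbpms* at 1.82 to 6.43 TPM, *Sncg* at 0.83 to 4.55 TPM and *Pou4f1* at 0.08 to 3.60 TPM. All 10 rod markers were higher in every cKO library than in every WT library, and 9 of 9 T cell markers had negative differences. Thy1.2 is also carried by mouse T cells. TPM values hold no read depth, so counting error is unknown for every RNA value here.

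All 10 genes were detected in each library, and their levels in TPM can be compared between genes because that unit accounts for length. In the WT libraries, *Apoe* stood far above the rest at 4844 ± 1367 TPM (SD, n = 3), followed by *Lgals3* at 122 ± 27.8 TPM and *Axl* at 95.8 ± 34.6 TPM. *Lgals3* exceeded *Axl* in every WT library although their ranges overlapped. *Cst7*, *Cd68* and *Clec7a* came next with means of 28.7, 23.7 and 22.2 TPM, and their order changed from library to library. *Spp1* lay below them at 8.76 ± 2.27 TPM. *Itgax*, *Lpl* and *Gpnmb* closed the order with means of 5.28, 4.29 and 3.21 TPM and overlapping ranges.

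In the cKO libraries *Lpl* moved from ninth to the fourth place with a mean of 11.9 TPM, although its range overlapped that of *Cd68* below it. *Itgax* took the last place at 1.66 ± 0.22 TPM, beneath the lowest *Gpnmb* value. Together the genes made up 0.360, 0.556 and 0.634% of the summed TPM of WT replicates 1 to 3, and 0.206, 0.221 and 0.381% of that of cKO replicates 1 to 3. The groups overlapped in this share, and *Apoe* accounted for 92.6 to 94.3% of it.

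**Figure D1:**
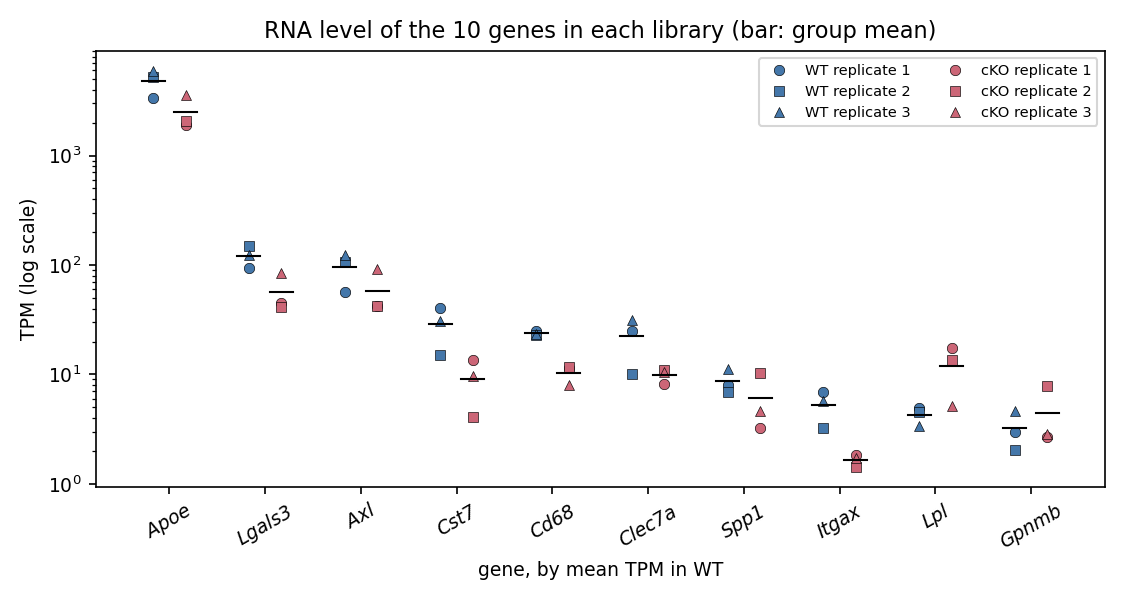
RNA level of each gene in TPM on a log axis, with the genes ordered by their mean in the WT libraries; symbols stand for replicates, blue for WT, red for cKO, and the black bar for the mean of 3 libraries. *Apoe* lies above all other genes in both groups, *Cd68*, *Cst7*, *Itgax* and *Lgals3* lie lower in every cKO library than in every WT library, and *Lpl* lies higher.

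The question of the RNA comparison was how the sorted cells differed after AAV2-Cre. No difference of a single gene of this set passed an adjusted p of 0.05 in limma. At an unadjusted p under 0.05, 5 of the 10 genes were lower in cKO (*Apoe*, *Cd68*, *Cst7*, *Itgax* and *Lgals3*) and 1 was higher (*Lpl*). Of all 17555 genes tested, 6.45% passed that threshold with negative differences and 11.9% with positive ones, and at an adjusted p under 0.05 the shares were 0.0% and 0.0057%. The WT and cKO values did not overlap for 4 genes that were lower and for 1 that was higher, against 7.18% and 18.7% of all genes. These shares over all genes depended on the scaling. With median of ratios scaling of 17554 genes, 1674 were lower and 1328 higher at the unadjusted threshold, against 1133 and 2095 without it, and 1976 were lower and 2178 higher with the groups apart, against 1261 and 3275. Over the 10 genes 8 differences were negative and 2 positive, with a median log2 difference of -0.96, whereas the median over all genes was 0.16 and became 0.01 after scaling by the median of ratios. In sorted pools such as these, fewer cells of a type and less RNA per cell cannot be told apart.

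**Figure D2:**
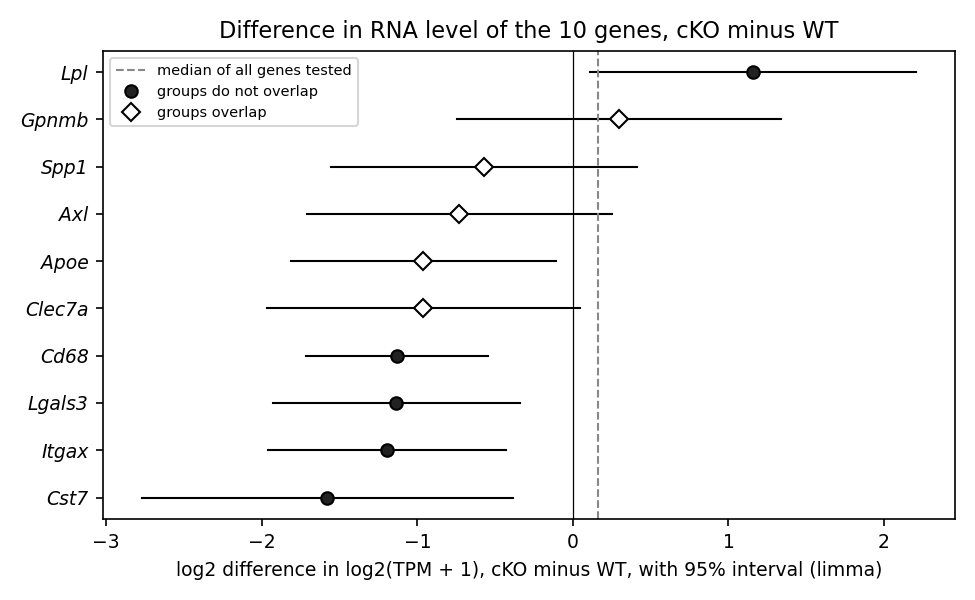
Log2 difference of each gene on the log2(TPM + 1) scale, cKO minus WT, with its 95% interval from limma (n = 3 in each group); filled circles mark genes whose groups do not overlap, and the dashed line is the median of all genes tested, at 0.16. The estimates run from -1.58 for *Cst7* to 1.16 for *Lpl*, and intervals of *Cst7*, *Itgax*, *Lgals3*, *Cd68* and *Apoe* lie below 0.

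Among genes of the lysosome and of debris uptake, *Cd68* gave the most even separation. *Cd68* encodes a heavily glycosylated membrane protein of late endosomes and lysosomes of phagocytes. Its level was 24.8, 22.8 and 23.4 TPM in WT replicates 1 to 3, and 11.4, 11.7 and 8.02 TPM in cKO replicates 1 to 3. The cKO values were all far under the lowest WT value, and replicates within a group lay near one another. This gave a log2 difference of -1.13 (SE 0.25, 95% interval -1.72 to -0.55), with an unadjusted p of 0.00249 and an adjusted p of 0.124 from limma.

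*Cst7*, which encodes cystatin F, an inhibitor of lysosomal cathepsins, measured 40.7, 15.1 and 30.5 TPM in the WT libraries. In the cKO libraries it measured 13.6, 4.10 and 9.61 TPM. WT replicate 2 was the lowest of its group and came close to the highest cKO library, so the groups were narrowly apart. The log2 difference was the largest of the set at -1.58 (SE 0.51, 95% interval -2.77 to -0.39), with an unadjusted p of 0.0164 and an adjusted p of 0.182 from limma. Without WT replicate 1 the unadjusted p was 0.0605.

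*Lgals3*, the gene for galectin-3, a secreted and cytosolic lectin that binds galactose-bearing glycans, had 93.5, 149 and 124 TPM in the WT libraries and 44.6, 41.4 and 85.4 TPM in the cKO libraries. The groups did not overlap, but cKO replicate 3 stood near WT replicate 1 and above the other two cKO libraries. Its log2 difference was -1.14 (SE 0.34, 95% interval -1.93 to -0.34), with an unadjusted p of 0.0116 and an adjusted p of 0.164 from limma. *Gpnmb*, a transmembrane glycoprotein gene induced with lysosomal stress, behaved otherwise. It measured 2.95, 2.03 and 4.65 TPM in WT and 2.67, 7.84 and 2.87 TPM in cKO. The groups overlapped, and only cKO replicate 2 exceeded the WT range. The log2 difference was 0.30 (SE 0.44) with an adjusted p of 0.750 from limma, and it was -0.11 without cKO replicate 2.

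The surface receptors were all low or moderate in TPM. *Itgax* encodes integrin alpha X (CD11c), which pairs with the product of *Itgb2* to bind complement fragments. It stood at 6.85, 3.24 and 5.74 TPM in the WT libraries and at 1.85, 1.42 and 1.72 TPM in the cKO libraries. The 3 cKO values lay close together and under each WT value, with a log2 difference of -1.19 (SE 0.32, 95% interval -1.96 to -0.43), with an unadjusted p of 0.00773 and an adjusted p of 0.150 from limma.

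*Clec7a* encodes dectin-1, a receptor for beta-glucans that signals through SYK. Its values were 25.0, 10.1 and 31.5 TPM in WT and 8.16, 11.0 and 10.6 TPM in cKO. The cKO libraries were alike, and WT replicate 2 fell within their range while the other two WT libraries lay well above all of them. Its log2 difference was -0.96 (SE 0.43) with an unadjusted p of 0.0587 and an adjusted p of 0.288 from limma. It ran from -1.42 to -0.65 when 1 library was left out. The value of -1.42 came from leaving out WT replicate 2, the library within the cKO range.

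*Axl* encodes a receptor tyrosine kinase that binds GAS6 and recognises dying cells through it. It measured 57.1, 107 and 124 TPM in WT and 41.8, 42.2 and 91.2 TPM in cKO. WT replicate 1 and cKO replicate 3 crossed, so the groups overlapped, with a log2 difference of -0.73 (SE 0.42) and an adjusted p of 0.389 from limma. Leaving out either of these libraries gave log2 differences of -1.06 and -1.10. The groups then separated by construction, since these are the libraries that cross, so this adds no support. When 1 library at a time was left out, the log2 difference of *Axl* ran from -1.10 to -0.51. Between libraries with the same replicate number *Axl* was lower in cKO each time, and in the fit with a replicate block its unadjusted p was 0.0339 and its adjusted p 0.193 from limma. No label pairs these libraries. The block rests on correlations in these same data, so its fit is no independent support.

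Of the secreted and lipid-handling genes, *Apoe* encodes the main lipoprotein particle protein of the retina and brain. It reached 3325, 5236 and 5973 TPM in WT and 1909, 2060 and 3583 TPM in cKO. The groups overlapped through WT replicate 1 and cKO replicate 3, the same libraries as for *Axl*. The log2 difference was -0.96 (SE 0.36, 95% interval -1.81 to -0.11), with an unadjusted p of 0.0319 and an adjusted p of 0.227 from limma. This unadjusted p rose to between 0.0836 and 0.112 when WT replicate 2 or 3 or cKO replicate 1 or 2 was left out, and was 0.0963 with no filter on low values, which left 4 lower genes.

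*Lpl* encodes lipoprotein lipase, which releases fatty acids from lipoproteins. It was the single gene of the set whose cKO values all lay above the WT values, with 4.94, 4.54 and 3.41 TPM in WT and 17.3, 13.4 and 5.11 TPM in cKO. The gap was narrow, since cKO replicate 3 was only just above WT replicate 1. The log2 difference was 1.16 (SE 0.44, 95% interval 0.11 to 2.21), with an unadjusted p of 0.0349 and an adjusted p of 0.234 from limma. With median of ratios scaling the groups overlapped and the log2 difference was 1.01 with an unadjusted p of 0.0634, and the unadjusted p was above 0.05 when any library but cKO replicate 3 was left out. *Spp1* encodes osteopontin, a secreted ligand of integrins and CD44. It measured 8.03, 6.96 and 11.3 TPM in WT and 3.27, 10.2 and 4.63 TPM in cKO, with cKO replicate 2 inside the WT range, and its log2 difference was -0.57 (SE 0.42) with an adjusted p of 0.503 from limma. This value was -0.97 with an unadjusted p of 0.0399 without cKO replicate 2, and -0.27 without cKO replicate 1.

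The proximal promoters of the 5 genes with lower values at the unadjusted threshold are shown for comparison with the accessible chromatin described further on. Each line gives the 250 bases before a RefSeq start site (GRCm38.p6), 5′ to 3′ on the strand of the gene, at chr11:69666171-69666420 (minus strand) for *Cd68*, chr7:128129300-128129549 (plus) for *Itgax*, chr2:150570165-150570414 (plus) for *Cst7*, chr14:47373610-47373859 (plus) for *Lgals3* and chr7:19699189-19699438 (minus) for the most upstream of 3 *Apoe* start sites. Capitals mark matches on either strand to GAGGAA, a core read by PU.1 and other ETS factors, TGANTCA, the AP-1 motif, CACGTG, the E-box of the MITF and TFE family, or GGGCGG, the GC box.
Cd68: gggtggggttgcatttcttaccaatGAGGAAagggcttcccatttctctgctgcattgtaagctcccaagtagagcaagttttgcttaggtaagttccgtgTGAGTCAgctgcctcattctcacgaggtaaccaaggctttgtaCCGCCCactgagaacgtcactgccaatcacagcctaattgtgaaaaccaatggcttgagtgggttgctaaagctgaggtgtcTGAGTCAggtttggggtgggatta
Itgax: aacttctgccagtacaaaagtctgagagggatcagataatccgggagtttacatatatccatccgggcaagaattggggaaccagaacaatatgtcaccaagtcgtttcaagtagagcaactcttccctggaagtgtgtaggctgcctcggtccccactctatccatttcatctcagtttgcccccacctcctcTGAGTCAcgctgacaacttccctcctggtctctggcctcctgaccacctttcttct
Cst7: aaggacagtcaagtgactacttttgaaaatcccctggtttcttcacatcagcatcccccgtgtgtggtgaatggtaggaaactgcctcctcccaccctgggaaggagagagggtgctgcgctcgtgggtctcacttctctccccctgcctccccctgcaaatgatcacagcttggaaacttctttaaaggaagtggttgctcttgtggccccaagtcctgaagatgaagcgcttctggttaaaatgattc
Lgals3: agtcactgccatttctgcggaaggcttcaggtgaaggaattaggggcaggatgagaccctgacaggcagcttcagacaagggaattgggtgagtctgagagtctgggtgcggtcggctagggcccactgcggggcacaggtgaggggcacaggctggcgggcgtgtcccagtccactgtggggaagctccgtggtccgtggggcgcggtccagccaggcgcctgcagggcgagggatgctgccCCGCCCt
Apoe: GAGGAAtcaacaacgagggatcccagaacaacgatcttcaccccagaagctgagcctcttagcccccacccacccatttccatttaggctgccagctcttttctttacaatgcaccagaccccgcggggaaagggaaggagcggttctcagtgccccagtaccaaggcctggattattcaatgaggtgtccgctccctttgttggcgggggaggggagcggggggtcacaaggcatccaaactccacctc

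RefSeq windows were at hand for 9 of the 10 genes, with 13 start sites, and *Lpl* had no entry. GAGGAA occurred in 7 of these 13 windows, belonging to *Apoe*, *Axl*, *Cd68*, *Clec7a* and *Spp1*, against 23.3% of 32851 mouse windows of the same length. The windows of *Clec7a* overlap one another and hold the same match. TGANTCA occurred in 2 windows, with 2 matches in *Cd68*, 149 and 24 bases before the start site, and 1 in *Itgax*, 56 bases before it, against 6.75% of all windows. GGGCGG was found in the windows of *Axl*, *Cd68* and *Lgals3*, against 32.7% of all windows, and CACGTG in 0 of 13, against 6.02%. No match of one motif overlapped a match of another in these windows. Such matches describe letters alone and say nothing of binding.

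Genes known to work with these products did not all share one direction, with 14 negative and 6 positive differences among the 20 tested. Of 21 measured receptors, ligands and partners, 20 were tested and *Gpihbp1*, which anchors lipoprotein lipase on capillaries, was listed at 0 in each library. At an unadjusted p under 0.05, 3 were lower (5 without cKO replicate 3 or with the replicate block, and 7 with median of ratios scaling) and 3 were higher, none passed an adjusted p of 0.05 in limma, and the median log2 difference was -0.31. *Gas6*, the ligand of AXL, was higher, with 109 ± 30.7 TPM in WT and 257 ± 18.1 TPM in cKO (SD, n = 3), a log2 difference of 1.27 and an adjusted p of 0.124 from limma. *Vldlr*, a receptor for APOE-bearing lipoproteins, had a log2 difference of 0.92. *Syk*, the kinase downstream of dectin-1, went from 5.70 ± 1.41 TPM in WT to 1.64 ± 0.47 TPM in cKO, a log2 difference of -1.34 with an adjusted p of 0.125 from limma. *Itgb1*, an integrin subunit in receptors for osteopontin, had a log2 difference of -1.12. *Itgb2*, whose product pairs with CD11c, had the lowest of the list at -1.51, with an adjusted p of 0.184 from limma. The groups of *Syk*, *Itgb1* and *Itgb2* did not overlap.

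Of 26 further genes of the reactive state, 25 were tested, 8 with negative and 2 with positive differences at an unadjusted p under 0.05, with a median log2 difference of -0.68 and none past an adjusted p of 0.05 in limma. Without WT replicate 3 the lower count was 5. The higher count was 1 without cKO replicate 1 or cKO replicate 2, and 3 without cKO replicate 3 or with the replicate block. *Lyz2*, the macrophage lysozyme gene, ranged from 1069 to 1362 TPM in WT and from 307 to 458 TPM in cKO, a log2 difference of -1.80 with an adjusted p of 0.124 from limma. *Lilrb4a*, an inhibitory receptor gene of myeloid cells, had a log2 difference of -1.66, and *Fth1*, the heavy chain of ferritin, one of -0.90. *Igf1*, a growth factor gene, ran opposite to these, at 12.5 to 24.3 TPM in WT and 36.7 to 63.4 TPM in cKO, with a log2 difference of 1.48 and an adjusted p of 0.124 from limma. The groups of these 4 genes did not overlap.

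Markers of other cells are given here beside the set. All 10 pan-myeloid markers had negative differences, 3 of them at an unadjusted p under 0.05 (*Aif1*, *C1qa* and *C1qb*) and 5 with the replicate block, and their summed level ran from 1108 to 2021 TPM in WT and from 571 to 843 TPM in cKO. Of the 12 homeostatic microglial markers, *P2ry12*, a purinergic receptor gene of surveying microglia, was nearly level at 34.9 ± 13.9 TPM in WT and 35.7 ± 2.26 TPM in cKO. *Tmem119* had a log2 difference of -0.71 with an adjusted p of 0.389 from limma. In that list 1 gene, *Selplg*, was lower at an unadjusted p under 0.05 (2 with median of ratios scaling, 3 without WT replicate 1 and 2 without WT replicate 2), and the summed level was 464 to 839 TPM in WT and 377 to 424 TPM in cKO. Of the 12 differences 8 were negative and 4 positive. Their median of -0.25 became 0.21 without WT replicate 3 and 0.03 without cKO replicate 3, with 11 genes tested in each case.

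Monocyte-derived markers were lower for 5 of 7 genes at an unadjusted p under 0.05, led by *Ly6c2* with a log2 difference of -2.61, and their summed level was 434 to 1376 TPM in WT and 122 to 283 TPM in cKO. Of these 7 differences 1 was positive, at 0.72. T cell markers were lower for 7 of 9, with *Cd3e* at 56.7 to 83.1 TPM in WT and 9.13 to 16.5 TPM in cKO, and summed to 309 to 894 TPM and 81.4 to 193 TPM. Dendritic cell markers were lower for 2 of 7, *Clec9a* and *Ccr7* (1 without WT replicate 1 or WT replicate 3), with summed levels of 41.9 to 110 TPM and 29.3 to 35.5 TPM. Of their defining markers, *Flt3* had a log2 difference of -0.73 with the groups apart. *Zbtb46* went the other way, with a log2 difference of 0.49 and overlapping groups. Müller glia and astrocyte markers were lower for 2 of 12, *Gfap* and *Vim* (4 without WT replicate 1, 1 without cKO replicate 2 and 6 without cKO replicate 3), all 12 differences were negative, and their summed levels overlapped at 11016 to 20881 TPM and 8679 to 21733 TPM. No defining marker of these lists was under 1 TPM in every library, and no gene of them passed an adjusted p of 0.05 in limma. The part of any of these cells in the differences of the 10 genes was not tested.

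To see which cell markers each gene tracked from library to library, its log2(TPM + 1) was set against the mean over a marker list, and the pooled SD within groups of that gap was taken. This describes 6 libraries and carries no test, and the lists to set side by side were picked after their values were seen. *Axl* kept an almost fixed distance to the Müller glia and astrocyte markers, between -2.05 and -1.81 in all 6 libraries, with an SD of 0.068. Of 17543 genes outside that list, 0.0627% had an SD as small or smaller, the median was 0.656, and the markers' own SDs ran from 0.125 to 0.634. *Apoe* had an SD of 0.134, which 0.713% of genes matched or undercut, and *Lgals3* one of 0.226, with 3.32% of genes.

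Against the pan-myeloid markers the same 3 genes varied more than the median gene, whose SD was 0.672. The SD was 1.04 for *Axl*, 0.902 for *Apoe* and 0.942 for *Lgals3*. All 3 values lay within the range of the pan-myeloid markers' own SDs against that list. They therefore do not set these genes apart from the pan-myeloid markers. *Cd68* and *Itgax* lay closer to the pan-myeloid markers, with SDs of 0.339 and 0.399, matched or undercut by 5.82% and 10.8% of genes. *Lpl*, *Gpnmb*, *Clec7a* and *Spp1* had SDs of 0.441, 0.547, 0.549 and 0.629 against these markers. *Cst7* stayed near the T cell markers, with an SD of 0.243 that 0.445% of genes matched or undercut and a gap between -1.03 and -0.33. Its SD against the pan-myeloid markers was 0.737, also within the range of those markers' own SDs. *Itgax* had an SD of 0.460 against the T cell markers, with 3.37% of genes. The T cell markers' own SDs ran from 0.169 to 0.798. Against the rod markers, *Spp1* had an SD of 0.306, which 6.2% of genes matched or undercut. SDs of the other genes of the set there ran from 0.402 for *Gpnmb* to 0.954 for *Cst7*, and the median over all genes was 0.553. A small SD against a list therefore does not by itself assign a gene to the cells of that list. Only the pan-myeloid, Müller glia and astrocyte, T cell and rod markers were compared in this way. The monocyte-derived and dendritic cell markers were not, so whether *Itgax* or another gene lay closer to them was not tested.

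**Figure D3:**
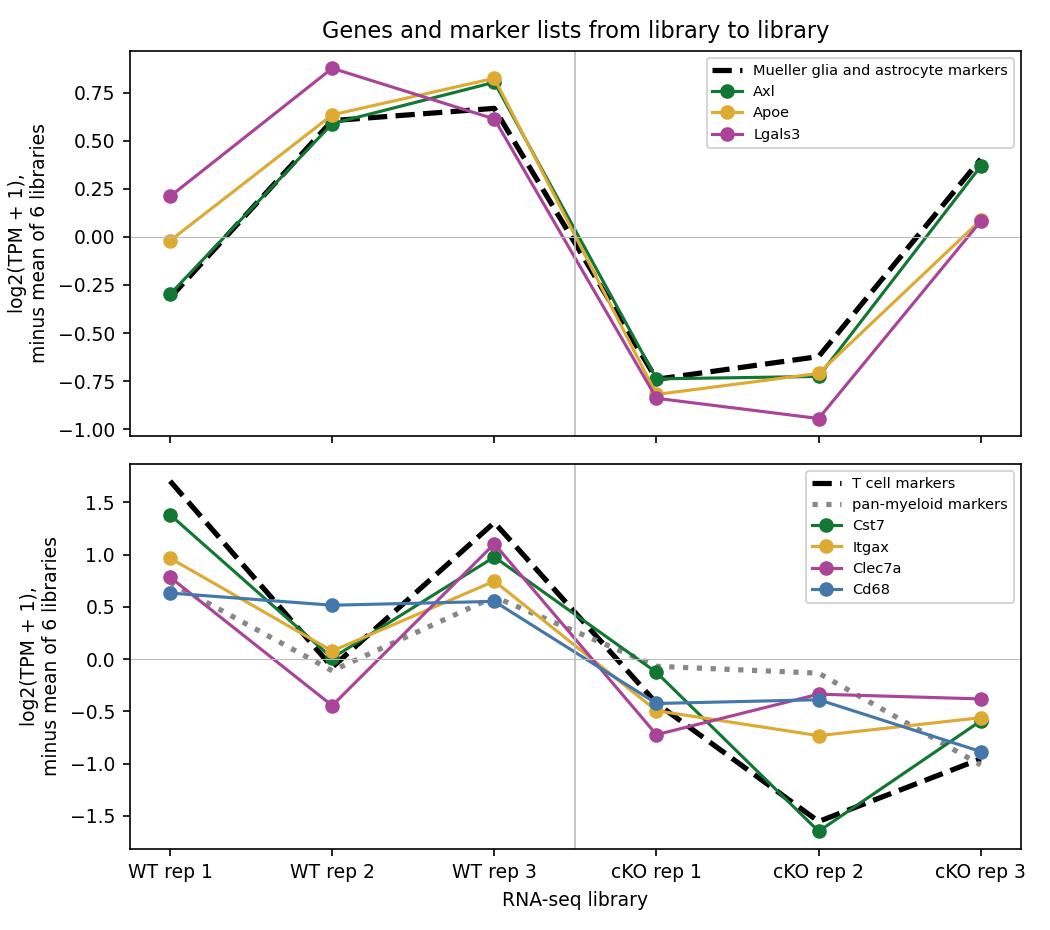
Level in each RNA-seq library on the log2(TPM + 1) scale, minus the mean of the 6 libraries, for members (coloured lines) and for the mean of marker lists (dashed and dotted lines). In the upper panel *Axl* runs along the Müller glia and astrocyte markers and *Apoe* and *Lgals3* stay near them, with WT replicate 1 low and cKO replicate 3 high for their groups; in the lower panel *Cst7* runs near the T cell markers, both low in WT replicate 2 and cKO replicate 2.

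Each gene was also expressed relative to the mean of the pan-myeloid markers within its library, which asks how it differed from that mean. The markers did not move together. In WT replicates 1 to 3 *C1qa* measured 568, 475 and 1010 TPM, and *C1qc* 139, 149 and 27.0 TPM. *Tyrobp* measured 31.2, 1.79 and 12.6 TPM there. The mean of the list is therefore not a measure of the myeloid share of the RNA. With 3 libraries against 3, the smallest p an exact two-sided permutation test can give is 0.1. No gene was lower with the groups apart, but without cKO replicate 3 this count was 4. The share over all genes was not taken for these ratios, and non-overlap is easier to reach with fewer libraries. These counts therefore do not set the 10 genes apart from other genes. *Lpl* was higher, with log2 ratios of -3.53, -2.78 and -3.82 in WT and -1.10, -1.38 and -1.74 in cKO, a difference of 1.97 with an exact permutation p of 0.1, or 0.5 after adjustment over the 10 genes. *Gpnmb* was higher by 1.11 with the same p, its lowest cKO ratio of -3.42 being just above its highest WT ratio of -3.46. For the other genes the groups overlapped and differences ran from -0.77 for *Cst7* to 0.24 for *Spp1*.

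Relative to the homeostatic microglial markers, the differences were -1.33 for *Cst7*, -0.94 for *Itgax* and -0.88 for *Cd68*, with the groups apart and an exact permutation p of 0.1 each, the smallest possible. *Lpl* was again higher with the groups apart, by 1.41, and *Gpnmb* overlapped. Which reference was used therefore set whether *Cd68*, *Cst7* and *Itgax* separated the groups, whereas *Lpl* did so with either. The references themselves differed between the groups, by -0.81 for the pan-myeloid and -0.25 for the homeostatic mean, which shifts the ratio of every gene.

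In the ATAC-seq data the question was whether chromatin near these genes differed in accessibility. Of the 10 genes, 1 had a region of the comparison within 1000 bp of an end, *Axl*, whereas 51.5% of 15516 genes tested by RNA-seq and placed on GRCm38.p6 had one. The region lay at chr7:25754460-25756296, 204 bp beyond the 3′ end of *Axl* (minus strand, 25756500 to 25788924) and 32437 bp from its start site. It overlapped *Hnrnpul1* (25721161 to 25756268), a gene for a nuclear RNA-binding protein, and held its start site at 25754759. The authors' group means were 7.60 in WT and 3.55 in cKO on the log2 scale of normalized reads, a log2 difference of -4.05, or 194 against 11.7 reads. A peak was called there in both WT libraries and in neither cKO library. A region lower by at least 2 on the log2 scale lay within 1000 bp of an end of 1 of the 10 genes and of 38.3% of all genes. Among 8002 regions at gene ends, 67.5% were lower by at least 2 on the log2 scale and their median was -2.50, so a lower value was the rule there. The table gives no value per library, hence no replicate error and no test.

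Widening the distance to 3000 bp brought in *Cd68* with a region at chr11:69662330-69663121, 1092 bp past its 3′ end and over the start site of *Mpdu1* at 69662649, and 57.0% of genes had a region at that distance. Its log2 group means were 4.89 in WT and 1.96 in cKO, a log2 difference of -2.93. None of the 9 genes with a known start site had a region within 1000 bp of it, against 43.9% of genes. The nearest region to the *Itgax* start site was 108160 bp away, and those nearest to the start sites of *Lgals3* and *Cst7* were 44362 and 38086 bp away.

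The peak lists of single libraries, which hold positions alone, told of few and scattered peaks. Within 1000 bp of an end, peaks were listed for 3 of the 10 genes in WT replicate 1 (*Spp1*, *Cst7* and *Axl*), 2 in WT replicate 2 (*Lpl* and *Axl*), 2 in cKO replicate 1 (*Itgax* and *Gpnmb*) and 3 in cKO replicate 2 (*Apoe*, *Clec7a* and *Axl*). Over all genes the shares were 65.1%, 58.2%, 13.6% and 13.9%. The libraries held 42265 to 76522 peaks in WT and 55902 to 68317 in cKO, so a smaller share at gene ends in cKO did not go with fewer peaks. Only the *Axl* peak at the *Hnrnpul1* start site was present in both WT libraries, and no gene had a peak in both cKO libraries.

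Some of these peaks covered the promoters printed above. In WT replicate 1 a peak at chr2:150569920-150570588 spanned the whole printed *Cst7* window, and none was listed there in the other 3 libraries. At *Apoe* the annotated gene end at 19701310 lies beyond its start sites, and peaks fell at the start sites in the 2 WT libraries, at chr7:19698437-19698713 in replicate 1 and chr7:19698871-19699232 in replicate 2. These did not overlap each other, and no cKO library had a peak over an *Apoe* start site. The windows of *Cd68*, *Itgax* and *Lgals3* were under no peak in any library. Whether 1 library's peak and another's lack of it exceeds the error of peak calling was not tested, since the lists give no heights.

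**Figure D4:**
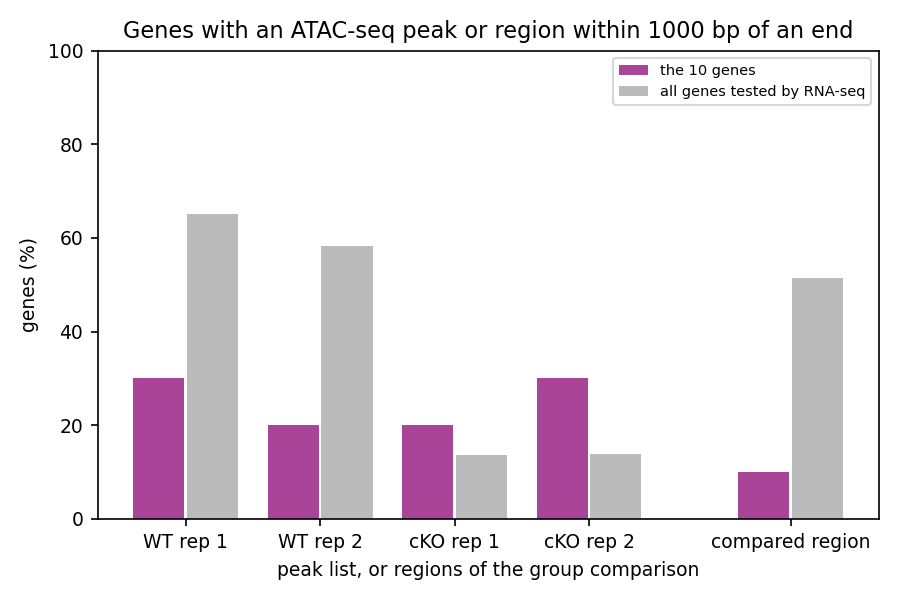
Share of genes, in percent, with an ATAC-seq peak within 1000 bp of either gene end in each library, and with a region of the group comparison there; purple bars stand for the 10 genes and grey bars for 15516 genes tested by RNA-seq. The grey bars are 65.1% and 58.2% in WT, 13.6% and 13.9% in cKO and 51.5% for compared regions, while the purple bars stand for 3, 2, 2, 3 and 1 of 10 genes.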

How the data were processed

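RNA-seq and ATAC-seq were read from retinal cells of mice sorted for Thy1.2, and groups were taken from the sample labels. The authors deposited TPM values for 6 RNA-seq libraries, made with Trimmomatic, Salmon 1.0.0 on the GENCODE annotation and tximport. These values were not scaled between libraries and hold no read counts. For ATAC-seq the authors aligned reads to GRCm38 with Bowtie2 2.3.5.1 and deposited the log2 mean of normalized reads per group, made with DiffBind. Peak lists of each library were deposited as positions (other values were not used). MACS2 2.2.5 is named in the submitters' processing notes, and its settings are not given in the sources used here. Columns and a table with the authors' own comparisons hold fold changes, p-values and false discovery rates and were not used.

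Genes that reached 1 TPM in 3 or more of 6 libraries were tested on log2(TPM + 1) with limma 3.58.1 in R 4.3.3 (trend, Benjamini-Hochberg adjustment over all 17555 genes). A log2 difference on this scale understates the change of low genes. Ratios to marker lists were compared by two-sided exact permutation tests, with SciPy 1.17.1. The limma script was tested on simulated data. Libraries are pools of 4 to 5 retinas, and nothing states whether they came from separate sorts, so p-values measure the spread between these samples. Libraries with the same replicate number deviated together (correlations of deviations from the group means of 0.334, 0.101 and 0.425), so a fit with the number as a block was run as an alternative; the pairing comes from these correlations and not from the labels. Gene ends and promoter sequences are from RefSeq (GRCm38.p6), and coordinates count from 1.

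The genes and lists were chosen with earlier results of these data known. The text draws its gene names mainly from the 10 genes, *Arid1a*, and in each list the defining markers and up to 4 genes with the lowest unadjusted p. Not every one of these is named. Alternatives changed the pseudocount to 0.1, the filter, the scaling (median of ratios), the trend, the marker reference and the distance to a gene, added the block, or left out each library.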

Additional observations from a re-analysis of the deposited data

How the results depend on the processing

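None of the 10 genes passed an adjusted p of 0.05 under any alternative. The counts and the median over them were within 1.5 times, or within the spread, in 65 of 72 alternatives, and single differences kept their direction in 117 of 118, the exception being *Gpnmb*, at -0.11 without cKO replicate 2 and at most 0.53 without another library. Leaving out 1 library gave 4 to 6 genes lower at an unadjusted p under 0.05, 0 to 1 higher, 4 to 6 lower with the groups apart, and medians of -1.05 to -0.72. Over all genes tested, 699 of 16952 to 1321 of 17167 were then lower at that threshold, and 976 of 16952 to 2279 of 17024 higher. Non-overlap is easier to reach with fewer libraries. The count of 6 apart came without WT replicate 1 or cKO replicate 3. There 2430 of 17039 and 2246 of 17024 genes were lower and apart, against 1261 of 17555 with all libraries. Median of ratios scaling gave 0 higher genes by either measure, because *Lpl* lost its separation; the cause was not tested. The replicate block changed no call at an adjusted p of 0.05, with that of *Cst7* at 0.0633. At the unadjusted threshold the block added *Axl* (p of 0.0339 from limma), for 6 lower genes, against 1495 of 17555 over all genes. With no filter on low values *Apoe* was lost (unadjusted p of 0.0963 from limma), for 4 lower genes, against 1236 of 30472 over all genes. The block was fitted for RNA-seq alone, since the ATAC-seq table gives no value per library.

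Relative to pan-myeloid markers, 0 genes were lower with the groups apart, 3 with the homeostatic reference, and 0 to 4 without 1 library. No share over all genes was taken for counts of these ratios. Of the 2 higher genes 1 was left with the homeostatic reference, without the C1q genes and with a pseudocount of 0.1, and 2 to 3 without 1 library. Differences near 0 changed sign: *Spp1* to -0.32 and *Axl* to -0.48 with the homeostatic reference, *Axl* to -0.039 without the C1q genes, and without 1 library *Spp1* (-0.022 to 0.71), *Apoe* (-0.74 to 0.19), *Lgals3* (-0.95 to 0.091), *Clec7a* (-0.50 to 0.14) and *Axl* (-0.59 to 0.45). Spreads against marker lists, an alternative set chosen after seeing the data, stayed between 0.046 and 0.078 for *Axl* and between 0.197 and 0.270 for *Cst7* without 1 library.

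For ATAC-seq, 2 genes had a region at 3000 bp, both lower by at least 2 on the log2 scale, and 0 at 1000 bp of a start site, a distance added after seeing the data. At 3000 bp, 5 genes had a peak in WT replicate 1, 6 in WT replicate 2, 3 in cKO replicate 1 and 4 in cKO replicate 2, against 74.9%, 66.9%, 30.7% and 32.3% of all genes. By peak midpoint within 1000 bp of an end the counts, in the same order of libraries, were 2, 1, 2 and 2. The shares of all genes were 63.0%, 56.3%, 12.1% and 12.1%. Within 1000 bp of a start site the counts were 3, 1, 2 and 1, against 54.0%, 49.1%, 7.08% and 6.85% of all genes. A peak in either WT library was listed for 4 genes and in both for 1, against 71.8% and 51.6% of all genes. A peak in either cKO library was listed for 5 and in both for 0, against 25.2% and 2.28%. Unknown read depth limits every value.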

Other observations

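Of 16 transcription factor genes known from the reactive and homeostatic states, 12 were tested. At an unadjusted p under 0.05, 2 were lower and 1 higher, with none past an adjusted p of 0.05 in limma. *Irf8*, a factor of myeloid and B cell identity, was lower, at 79.3 to 130 TPM in WT and 20.7 to 42.6 TPM in cKO, with a log2 difference of -1.73 and an adjusted p of 0.124 from limma. *Spi1*, which encodes PU.1, had a log2 difference of -0.98 with overlapping groups. *Tfeb*, a regulator of lysosomal genes, had a log2 difference of -1.68, also with overlapping groups, and without cKO replicate 1 or cKO replicate 2 the count of lower factors was 1. *Bhlhe41*, a repressor expressed in microglia and other macrophages, was the higher factor, at 51.0 to 62.0 TPM in WT and 94.8 to 98.2 TPM in cKO, with a log2 difference of 0.78 and an adjusted p of 0.131 from limma.

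*Trem2* and its adaptor *Tyrobp*, picked for mention after their values were seen, did not separate the groups. *Trem2* measured 9.26, 3.07 and 8.54 TPM in WT and 9.11, 9.61 and 2.74 TPM in cKO. *Tyrobp* measured 31.2, 1.79 and 12.6 TPM in WT and 8.82, 13.1 and 1.07 TPM in cKO, and the libraries low for one gene, WT replicate 2 and cKO replicate 3, were low for the other. B cell markers were lower for 3 of 4 genes at an unadjusted p under 0.05, with a median log2 difference of -2.17. Endothelial and pericyte markers were lower for 2 of 7 (4 without WT replicate 2 or with the replicate block, and 1 without WT replicate 3 or cKO replicate 3), with a median of -1.09. Of 12 markers of the pigment epithelium, 3 were tested and none had an unadjusted p under 0.05, and *Rpe65* and *Tyrp1* were under 1 TPM in every library. The RGC list had 2 of 10 genes higher, *Tubb3* and *Thy1*, at an unadjusted p under 0.05 (0 without WT replicate 3 or cKO replicate 1, 1 with median of ratios scaling or without cKO replicate 2 or cKO replicate 3), with a median of 0.18.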
